A study of Mus musculus with 2 samples.

Results

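The strongest MAFK binding sites of mouse embryonic stem cells are described here. They are the peaks with a deposited signal value of 150 or more on chromosomes 1 to 19 and X in the list that the authors thresholded from both replicates. The rule was met by 680 of the 16836 regions on these chromosomes (16865 on all sequences), and they are set beside the 6612 peaks of the same list with signal 20 to 40. Both groups were chosen by this signal value, a score whose scale was not stated, so signal, width, significance and the replicates' own signal values are given as description without a test, and tests were made on sequence and location, which the rule did not use. Peaks are not replicates of a condition, so each p-value describes these lists.

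MAFK is a small MAF protein, a basic leucine zipper factor that binds DNA but has no activation domain of its own. It pairs with itself or another small MAF protein, or with a CNC factor such as NRF2 (Nfe2l2), NFE2 or BACH1. Pairs of MAF proteins prefer a palindrome, the MAF recognition element (T-MARE), in which a MAF arm lies on either side of an AP-1-like centre. Pairs of a MAF and a CNC protein bind an asymmetric site with 1 MAF arm, known as the NFE2-type site or the antioxidant response element (ARE), through which genes of antioxidant defence and heme and iron handling are controlled.

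Chromatin was immunoprecipitated with an antibody against MAFK from ES-E14, a male embryonic stem cell line of the 129/Ola mouse strain, and sequenced. There were 2 biological replicates of 1 group, with no treatment or second genotype, and both came from cells of a shared source, so their spread may be partly technical. The files hold regions and not reads, so the depth of each replicate is unknown. The control experiment was not analysed here.

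Signal over the strong peaks ran from 150.035 to 509.4, with a median of 203.2 and quartiles of 170.4 and 253.3. The median of the peaks of 20 to 40 was 26.8. Strong peaks were 152 to 465 bp wide with a median of 258.5 bp, whereas 6608 of the 6612 peaks of 20 to 40 were exactly 296 bp wide. All 680 had an irreproducible discovery rate (IDR) score of 1000, the top of that scale, and a −log10 q-value of 3.83. The 3 members just inside the threshold lay near Abhd2, 2210017I01Rik and Hs3st2, at 150.247, 150.116 and 150.035. The 3 regions just outside it lay near Dynll1, Sgcz and Twf2, at 149.929, 149.865 and 149.826.

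The sequences below come from among the strongest members of each element class and show the forms that the results turn on. They were read from the GRCm38 reference (mm10) and are 29 bases long, 5′ to 3′, with 8 or more bases on either side of the element. Capitals mark the bases that match the searched element. Each is named for the gene of the nearest protein-coding transcription start site (TSS). The members near Esrrb, Aff3, Gin1 and Col13a1 hold the exact palindrome, which is the AP-1 element TGACTCA with the arm TGC before it and the arm GCA after it, or the same site read on the other strand.
Esrrb (chr12:86488215-86488243, plus strand): aggtaaaaTGCTGACTCAGCAtattttga
Aff3 (chr1:38549433-38549461, plus strand): cagtgttcTGCTGAGTCAGCAcatctcag
Gin1 (chr1:97768255-97768283, plus strand): cctctttcTGCTGAGTCAGCAtttctgcc
Col13a1 (chr10:61930090-61930118, plus strand): gatgttggTGCTGAGTCAGCAaaatctga

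The next 4 hold the NFE2-type composite element, which is TGACTCA or TGAGTCA followed by the arm GCA, with other bases in place of the left arm.
Kazn (chr4:142171617-142171645, minus strand): ctcctgcacgcTGACTCAGCActttcccg
Snrpc (chr17:27839909-27839937, minus strand): ttccaaaacccTGAGTCAGCAgttcctac
Sulf1 (chr1:12616257-12616285, minus strand): cctaaaaacgcTGACTCAGCActttacct
Rps15a (chr7:118104849-118104877, minus strand): accaggagttgTGAGTCAGCAgaaagtat

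The last 2 sets hold the ARE core TGACNNNGC or TGAGNNNGC with no composite element, or the MAF core TGCTGA with none of the longer forms, shown here from its other strand. Such sites reached signal values of 433.1 and 364.7 too.
Gatad2a (chr8:69936553-69936581, minus strand): ggatcaaaaacTGACtcaGCgtttttctc
Fam3c (chr6:22494046-22494074, plus strand): ttaagaaatgcTGACaaaGCtgtttcagg
Efcab2 (chr1:178463947-178463975, minus strand): tttcatgatgcTGACtagGCaaattctct
Sos1 (chr17:80497218-80497246, minus strand): ggacatcttgaTGAGtcaGCgcttttagg
Myo16 (chr8:10402750-10402778, plus strand): cagttttagcttgtcTCAGCAtttctcct
Gm28729 (chr9:96504252-96504280, minus strand): aagaaaacgctgccgTCAGCAtttctgtc

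The strongest member, at chr12:86488041-86488429, was intronic in Esrrb, which encodes an orphan nuclear receptor known from the pluripotency network. Its signal was 509.4 in the pooled list, 266.6 in replicate 1 and 247.5 in replicate 2. The second lay in an intron of Aff3 at chr1:38549276-38549662, with 470.3 pooled and 254.4 and 214.8 in replicates 1 and 2. The third, at chr1:97768109-97768476, was in an intron of Ppip5k2 and 1893 bp from the TSS of Gin1, with 465.9 pooled and 244.0 and 221.0 in the replicates. All 3 summits were within 13 bp of the centre of an exact palindrome. The fourth, in an intron of Kazn at chr4:142171471-142171813, had 459.5 pooled and differed most between the replicates of these 4, with 272.2 and 190.8.

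Of the 20 strongest members, 10 held the exact palindrome, 6 a composite element that was not the palindrome, and 4 the ARE core with no composite element. The 10 with the palindrome, with signal from 395.6 to 509.4, included those nearest to Esrrb, Aff3, Gin1, Col13a1 (a collagen), Plekha3, Rhoh, Casr (the calcium-sensing receptor), Epha2 (an ephrin receptor) and Atxn1. The 6 with the composite element were nearest to Kazn, Snrpc (a component of the U1 small nuclear ribonucleoprotein), Sulf1, Rps15a (a ribosomal protein), 1810013L24Rik and Dym, with 397.6 to 459.5. The 4 with the ARE core were nearest to Gatad2a (a subunit of the NuRD complex), Fam3c, Efcab2 and Sos1 (a RAS exchange factor), with 415.2 to 433.1. All 20 were found in the thresholded lists of both replicates.

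The exact palindrome had the largest odds ratio of the families that passed. It lay within 50 bp of 113 of 680 strong summits (16.6%, 95% interval 14.01 to 19.6), against 38 of 6612 summits of the peaks of 20 to 40 (0.575%, 0.419 to 0.788). The odds ratio was 34.5 (23.6 to 50.3, two-sided Fisher's exact test over 20 element families, adjusted p = 3.07e-85). Neither group's flanking windows of the same width 1000 bp away held it, in 0 of 1360 windows beside strong peaks (which allows up to 0.221%) and 0 of 13224 beside the others (up to 0.0227%). Over the whole list the palindrome was found at 2.14% of summits. In the replicates' own lists, with groups taken at the same shares of the ranks, the share at strong peaks was 25.2% against 2.27% in replicate 1 and 18.4% against 1.95% in replicate 2.

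The composite element and its parts were also more frequent at strong summits. The composite element was at 57.8% of strong summits (393) and 27.1% of the others (1794), which is an odds ratio of 3.68 (3.13 to 4.32, adjusted p = 1.45e-55 by the exact test). It was in 3 of the 1360 windows flanking strong peaks. The ARE core was at 85.4% against 61.4% (odds ratio 3.69) and the MAF core at 86.8% against 63.7% (3.74). The AP-1 element TGACTCA, the site of JUN and FOS dimers, was at 64.1% against 37.6% (2.96). These 3 had adjusted p-values of 1.06e-37 or smaller by the exact test. Over the whole list the composite element was at 28.2% of summits, the ARE core at 60.3%, the MAF core at 62.8% and the AP-1 element at 37.8%. All were searched on both strands, and the elements overlap. Each composite element holds the ARE core, the MAF core and the AP-1 element, and each palindrome holds the composite element on both strands. Of the 436 strong summits with the AP-1 element 393 thus held the composite element, as did 1794 of 2487 among the others. The AP-1 element with none of the other elements was at 1.32% of strong summits and 2.18% of the others. No excess of the AP-1 element apart from the other elements was therefore seen. With 1 mismatch allowed, the palindrome was at 45.4% of strong summits against 10.9%, and the composite element at 81.3% against 53.3%.

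Of the 20 families, 6 passed the adjusted threshold of 0.05 (30.0%), all higher at strong summits. The sixth was the GC box, bound by SP and KLF factors, at 6 strong summits (0.882%) against 15 of the others (0.227%, exact test, adjusted p = 0.0343). It rests on few sites and did not pass under 4 of 14 alternatives. The control made by shuffling the MAF core was at 34 strong summits against 393, or 5.94% of the others (odds ratio 0.833, 0.581 to 1.19, adjusted p = 0.619 by the exact test). The remaining 13 did not pass. Among them were the elements of the stem cell factors. SOX-OCT sites, searched without mismatches, were at 0 strong summits (which allows up to 0.441%) and 0 of the 6612 others. They were at 2 summits of the whole list, so their test could show no difference. ESRRB-type sites were at 3 strong summits (0.441%) against 22 (0.333%).

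**Figure D1:**
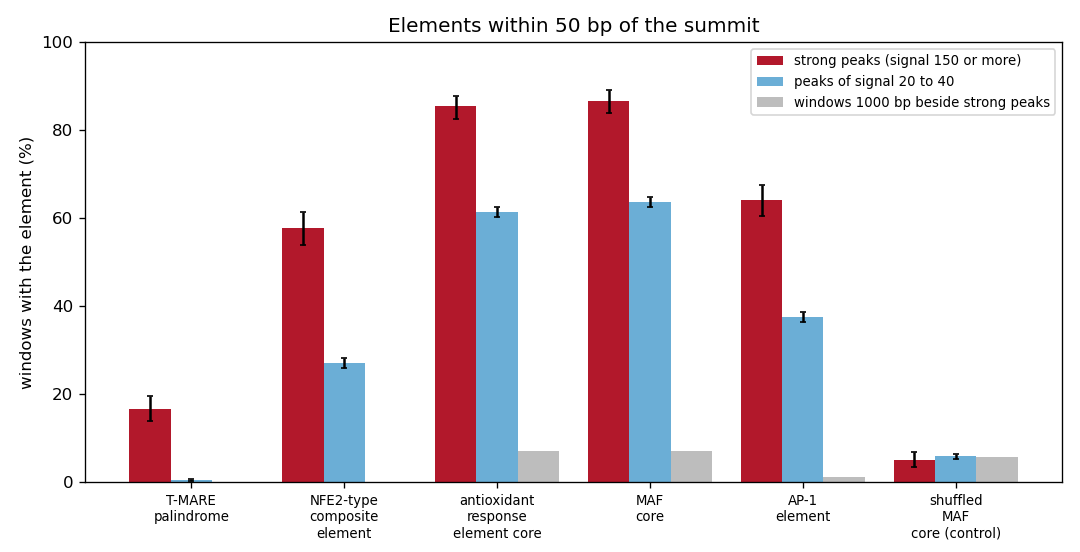
Share of windows (%) that hold each element at the summits of strong peaks (left bar of each set, n = 680), of peaks of signal 20 to 40 (middle, n = 6612) and in windows 1000 bp to either side of strong peaks (right, n = 1360), with 95% Wilson intervals for the summits. The palindrome stands at 16.6% against 0.575%, the composite element at 57.8% against 27.1%, and the shuffled control at 34 against 393 summits.

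Each peak was then put in the first class it met, from the exact palindrome down to none of the elements. Strong peaks had the palindrome in 16.6%, a composite element other than the palindrome in 41.2% (280), the ARE core without a composite element in 27.6% (188), the MAF core only in 11.2% (76), the AP-1 element only in 1.32% (9) and none in 2.06% (14). The peaks of 20 to 40 had 0.575%, 26.6%, 34.3%, 20.2%, 2.18% and 16.2% in the same classes. Read the other way, 31.3% of the 361 peaks with the palindrome in the whole list were strong. That share was 6.37% for other composite elements, 3.48% for the ARE core, 2.40% for the MAF core and 0.442% for peaks with none.

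Among the strong peaks the share of the palindrome was higher in the higher bands of signal. It was 11.1% (36 of 324) at signal 150 to 200, 18.1% at 200 to 300 and 31.2% (22.9 to 41.1, 30 of 96) at 300 or more. Below the threshold it was 0.105% under 20, 0.575% at 20 to 40, 3.08% at 40 to 80 and 7.18% at 80 to 150. The share of other composite elements showed no such order above 80, with 40.01% (563 of 1407) at 80 to 150, 39.8% at 150 to 200, 44.6% (38.7 to 50.7) at 200 to 300 and 36.5% (27.5 to 46.4) at 300 or more. The signal bands are a description, since signal chose the groups.

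**Figure D2:**
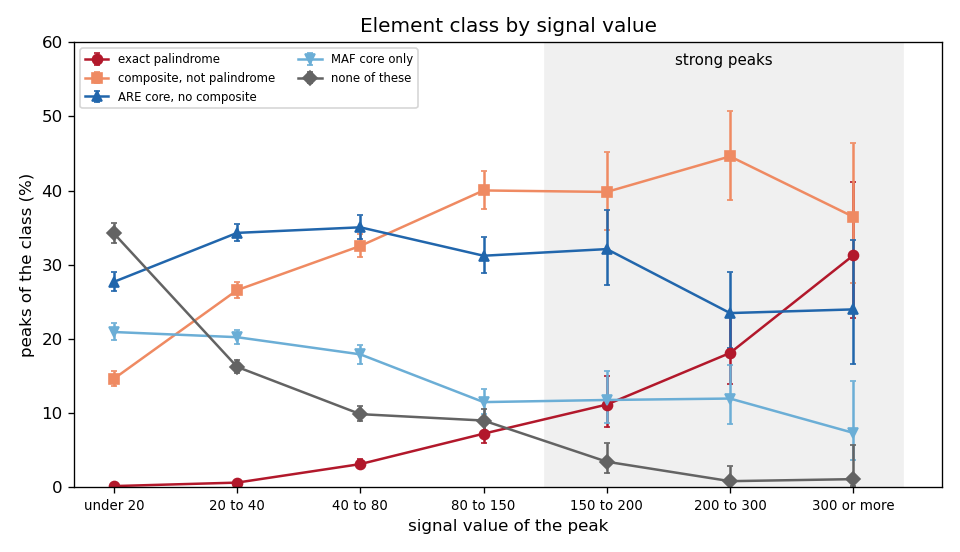
Share of peaks (%) in each element class by band of signal value, with 95% Wilson intervals, over all 16836 regions; the shaded bands are the strong peaks. The palindrome class runs from 0.105% below signal 20 to 31.2% at 300 or more, while peaks with none of the elements run from 34.2% to 1.04%.

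Strong peaks also came nearer to the full palindrome by their best match. The best 13 bp match within 50 bp of the summit had 1 mismatch in 28.8% of strong peaks and 10.3% of the peaks of 20 to 40, and 2 mismatches in 24.7% and 26.8%. It had 4 mismatches in 5.74% and 17.5%. Of the 196 strong peaks with 1 mismatch, the mismatch was at the outermost base of an arm in 33.7%, at the next base in 2.04% and at the third in 31.1%. For the 683 peaks of 20 to 40 with 1 mismatch these shares were 25.2%, 15.4% and 19.8%. The next base is the guanine of TGC, and it was the mismatch in 4 strong sites against 105.

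**Figure D3:**
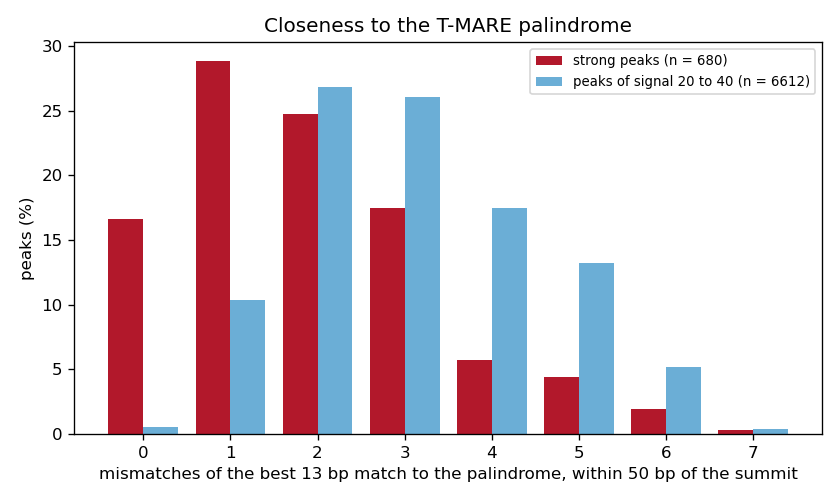
Share of peaks (%) by the number of mismatches of their best 13 bp match to the palindrome within 50 bp of the summit, for strong peaks (left bars, n = 680) and peaks of signal 20 to 40 (right bars, n = 6612). Strong peaks are most frequent at 1 mismatch (28.8%), the others at 2 mismatches (26.8%).

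The form of the composite element differed between the groups in the 3 bases before it, where the second MAF arm would lie. Over the composite element nearest to each summit, guanine stood 2 bases before it in 73.3% of 393 strong peaks and 51.1% of 1794 others (2.63 as an odds ratio, 2.06 to 3.35, adjusted p = 8.02e-15 by the exact test). Thymine stood 3 bases before in 46.6% against 20.1% (3.47, exact test, adjusted p = 1.17e-23). Cytosine stood directly before in 51.9% against 28.3% (2.73, exact test, adjusted p = 5.93e-17), and adenine there in 35.6% against 54.3% (0.466, adjusted p = 2.92e-10). The base in the centre, which separates the composite forms with TGACTCA and with TGAGTCA, was cytosine in 64.4% against 68.1% (exact test, adjusted p = 0.248). An exact palindrome reads either way, so its centre base depends on the strand taken. Without palindromes, an alternative added after the data were seen, cytosine was in 70.9% against 68.7% (exact test, adjusted p = 0.627).

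In all, 37 of the 81 bases tested at the centre and within 10 bases on either side passed (45.7%). A repeated sequence bears on that count. A group of 1080 regions was linked by shared stretches of 24 bp, and 818 of these had soft-masked summits. It held 32 strong peaks (4.71%) and 469 of the peaks of 20 to 40 (7.09%). Of its 807 composite elements 77.9% were preceded by AGA. Among peaks that shared no 24 bp with another, 12 of the 81 passed. Guanine 2 bases before was then 72.1% against 42.0% (odds ratio 3.58), thymine 3 bases before 48.9% against 26.1% (2.70) and cytosine directly before 56.6% against 37.5% (2.18). Guanine and thymine passed also where composite elements were no exact palindrome (1.69 and 1.53), whereas cytosine and adenine directly before did not (1.35, exact test, adjusted p = 0.0883, and 0.792, adjusted p = 0.175). Cytosine 3 bases before passed there as well, in 26.2% against 16.1% (1.86, exact test, adjusted p = 0.00108). Peaks of the repeat were kept in that set, where AGA stood before 28 of 282 strong and 449 of 1756 other elements. The part of the repeat in the thymine difference was not tested. Both alternatives, unshared peaks and elements that are no palindrome, were added after the data were seen.

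The other bases that passed among unshared peaks lay before and after the element. Adenine 6 bases before the element was in 38.5% of strong against 29.1% of other peaks. Adenine stood at the fifth base after it in 19.8% against 29.8%, and at the tenth in 22.1% against 29.6%. At the outer base of the 3, adenine (15.2% against 29.9%) and guanine (15.8% against 23.3%) were rarer. At the middle base, adenine, cytosine and thymine were each rarer, with odds ratios of 0.379, 0.438 and 0.450.

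Over all 4754 peaks with a composite element, signal was higher where 2 or 3 of these bases matched the palindrome's TGC, while 1 and 0 matched were close to each other. With all 3 matched (357 peaks) the median signal was 97.6 and 31.1% were strong. With 2 matched it was 45.8 and 10.3%, with 1 matched 32.4 and 4.30%, and with none 33.2 and 5.82%. Single triples stood out within these. CGC, which lacks only the outer thymine, was before 98 elements, of which 27.6% were strong with a median signal of 83.1. TGA, which lacks only the inner cytosine, was before 329, of which 15.5% were strong. AGC was before 334, of which 7.49% were strong, and AGA before 953, of which 2.94% were strong. The Kazn and Sulf1 sites printed above have CGC before the element.

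**Figure D4:**
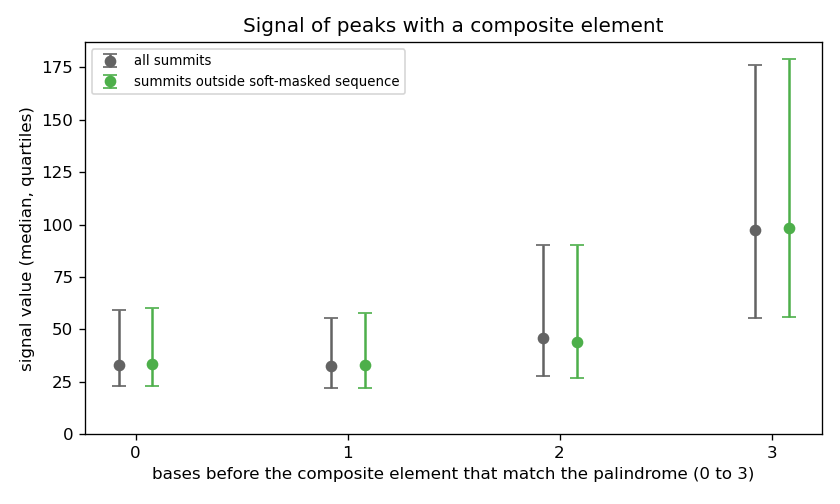
Signal value (median with quartiles) of peaks with a composite element, by how many of the 3 bases before it match the palindrome, for all summits (left points) and for summits outside soft-masked sequence (right points). The median is 97.6 with all 3 matched and 45.8, 32.4 and 33.2 with 2, 1 and 0.

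The genome gives a second view of these elements, counted from sites and not from peaks. Chromosomes 1 to 19 and X of the reference held 383 exact palindromes, and 368 of them (96.1%, 93.6 to 97.6) had a summit of the list within 50 bp. A strong summit lay by 120 of the 383 (31.3%, 26.9 to 36.1), and a summit of a peak of 20 to 40 by 38 (9.92%). Other composite elements numbered 22059, of which 20.9% had a summit and 1.65% (363) a strong summit. Those preceded by CGC had a summit at 98 of 128 (76.6%) and a strong one at 27 (21.1%), and those preceded by TGA at 344 of 492 (69.9%) and at 61 (12.4%). AGA, the triple of the repeat, preceded 2719, with a summit at 36.4% and a strong one at 1.43%. Within 1 kb of a TSS, 27 of 28 palindromes had a summit and 6 a strong one.

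Strong peaks also held more separate sites and had them nearer to the summit. ARE cores at least 14 bp apart numbered 2 or more in 117 strong peaks (17.2%) and 312 of the others (4.72%), and exactly 3 in 28 and 19. The nearest composite element lay a median of 8 bp from the summit in strong peaks (quartiles 4 and 12) and 11 bp in the others (5 and 20). It was within 10 bp in 67.9% against 48.4%. These counts were chosen after the elements had been seen and carry no test.

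No set of elements was assumed in a search of all sequences of 8 bp, counted on both strands together. Of 32232 that occurred, 29 differed at an adjusted p under 0.05 (0.0900%), all higher at strong summits, and 0 were lower (944 had an unadjusted p under 0.05). Among peaks in both replicates' lists 11 were higher and 2 lower, and of 6 bp sequences 17 were higher and 3 lower. The 10 with the smallest p were GAGTCAGC, ACTCAGCA, GACTCAGC, CTGACTCA, CTGAGTCA, AGTCAGCA, ATGCTGAG, AAGTGCTG, TCAGCAAA and CTCAGCAA. GAGTCAGC was at 40.1% of strong summits against 995 of the others (odds ratio 3.79, adjusted p = 1.00e-45 by the exact test). AAGTGCTG, which reads into the flank of the MAF arm, was at 9.85% against 4.16% (2.52, exact test, adjusted p = 1.04e-05). Of the 29, 26 shared 5 or more consecutive bases with the palindrome. The other 3, chosen for that after their values were seen, were AAAGTGCT, GAAAGTGC and ATGATGAC, at 7.06%, 3.53% and 3.68% of strong summits against 3.12%, 1.15% and 1.24%. Sequences of 8 bp overlap each other, so they are not separate findings.

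The 4 location classes did not pass the test. Summits within 1 kb of any annotated TSS made up 13.1% of strong peaks (89) and 13.7% of the others (odds ratio 0.947, 0.750 to 1.20, adjusted p = 0.775 by the exact test). Exons held 4.41% against 3.92%, introns 41.8% against 42.4% and intergenic sequence 40.7% against 39.9%, with adjusted p-values of 0.775 as well. Soft-masked sequence, which is mostly repeats, held the summits of 10.3% of strong peaks (70) and 17.6% of the others (odds ratio 0.537, 0.416 to 0.693, adjusted p = 2.40e-06 by the exact test). This held among peaks that share no 24 bp with another (6.23% against 10.8%, odds ratio 0.549).

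Chromosome X held 4 strong peaks (0.588%) and 106 of the others (1.60%), an odds ratio of 0.363 (0.133 to 0.989) that did not pass (adjusted p = 0.135 by the exact test). Per 100 Mb outside assembly gaps this was 2.45 strong peaks on X and 28.2 on the autosomes, and 64.8 and 271.5 peaks of 20 to 40. The 4 lay near Lamp2 (299.0), a lysosomal membrane protein, Tfe3 (231.5), a factor of the lysosomal gene network, Fgf13 (224.9) and Irak1 (187.2). No exact palindrome on X had a strong summit (0 of 10, which allows a share of up to 30.0%), against 120 of 373 on the autosomes. Of the 19 autosomes, 0 passed (0.00%, exact test, smallest unadjusted p = 0.0283).

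Promoter members held the same element classes as the rest, some of them at other shares. Among the 89 strong peaks within 1 kb of a TSS, 6 held the exact palindrome (6.74%), against 107 of 591 elsewhere (18.1%, odds ratio 0.327, interval 0.139 to 0.769). The ARE core without a composite element was at 41.6% (37) against 25.5% (151, odds ratio 2.07, 1.31 to 3.29). Other composite elements were at 30.3% (27) against 42.8% (253), and the MAF core only at 11.2% in both. Peaks with none of the elements were 6 (6.74%) against 8 (1.35%, odds ratio 5.27, 1.78 to 15.6). Signal had a median of 195.5 at promoters and 204.9 elsewhere. The windows were 52.5% GC at promoters and 47.5% elsewhere by their medians, and the part of GC content in the element counts was not tested. The classes were made after values had been seen, so no test is given.

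Strong peaks lay near genes of antioxidant defence. Of 32 antioxidant genes of the kind NRF2 is known to act on, 11 (34.4%) had a strong peak within 10 kb of a TSS, against 297 of all 21728 protein-coding genes (1.37%). Peaks of 20 to 40 lay within 10 kb of 8 of these 32 genes, against 2792 of all (12.8%). The list was chosen with earlier results known, and a peak nearby does not show that a gene is a target. The strongest lay at Hmox1, heme oxygenase, which breaks heme down. Its peak 9638 bp before the TSS, at chr8:75083784-75084152, had a signal of 390.4 pooled, 195.3 in replicate 1 and 199.1 in replicate 2. A second Hmox1 peak 3887 bp before the TSS, at chr8:75089543-75089889, had 302.5 pooled and 151.2 and 149.96 in the replicates.

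The next genes of this list act on glutathione and thioredoxin. Gsta4, a glutathione S-transferase, had a peak 94 bp before its TSS with 348.3 pooled and 179.3 and 169.8 in the replicates. Txnrd1, thioredoxin reductase, had one 66 bp before its TSS with 330.1 pooled and 171.9 and 158.9. Gclc, the catalytic subunit of glutamate-cysteine ligase, had one 3795 bp before its TSS with 301.3 pooled and 155.1 and 141.7. Prdx1, a peroxiredoxin, had one 85 bp before its TSS with 297.8 pooled and 141.7 and 154.2. A peak counted for Gstp1, another glutathione S-transferase, lay 8150 bp before its TSS but only 112 bp before that of its neighbour Gstp2, with 261.9 pooled and 125.6 and 141.1 in the replicates. The remaining 5 of the list were Gclm, Txn1, Srxn1, Tkt and Nqo1, at 156.9 to 181.0.

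Heme and iron genes had a strong peak in 4 of 22 cases (18.2%, beside the 1.37% of all protein-coding genes), Hmox1 among them. Peaks of 20 to 40 lay within 10 kb of 8 of the 22, beside 12.8% of all protein-coding genes. Fth1 and Ftl1 encode the ferritin chains that store iron. Fth1 had a peak 1986 bp before its TSS with 259.2 pooled and 125.2 and 135.8 in the replicates. Ftl1 had peaks of 226.0 and 174.2, and Slc48a1, a heme transporter, had 1 of 181.7. Of 10 genes of small MAF and CNC factors and Keap1, 2 had a strong peak, a count too small to set beside the 1.37%. Mafg had a peak of 221.8 located 54 bp before its TSS and Keap1, which targets NRF2 for degradation, 1 of 150.7 located 46 bp before its TSS. Replicate signals were 101.1 and 121.9 for Mafg and 68.9 and 83.6 for Keap1.

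The sites at these genes are shown to give the elements beside their names. Of the 12 strong peaks of the antioxidant list, 4 held a composite element and 6 the ARE core without a composite element. The MAF core only was in 2 and the exact palindrome in 0. The palindrome was at 16.6% of all 680 strong peaks and 6.74% of those at promoters, so 12 peaks are too few to set the list apart.
Hmox1 distal (chr8:75083940-75083968, minus strand): gccccggacctTGACTCAGCAgaaaaggc
Hmox1 proximal (chr8:75089741-75089769, minus strand): ggaacagagggTGACTCAGCAaaatctgt
Gclc (chr9:77750736-77750764, minus strand): ccgcctcaccgTGACTCAGCActctgcgc
Gsta4 (chr9:78191850-78191878, plus strand): gtactcagtaaTGAGtcaGCgaaaacttt
Txnrd1 (chr10:82859105-82859133, minus strand): ccgtgtcagaaTGACaaaGCaaaaatcca
Prdx1 (chr4:116685457-116685485, minus strand): cctacgggggaTGACtcaGCgctttccct
Fth1 (chr19:9978631-9978659, minus strand): ttgttccaccgTGACTCAGCAttctgctc
Mafg (chr11:120630199-120630227, minus strand): aggcgatccgcTGAGTCAGCAtgactcgc
Keap1 (chr9:21238829-21238857, plus strand): gcgggtcacggTGACtaaGCacagcgcgc

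In the other lists the counts were 0 or 1, which is read against the 1.37% of all protein-coding genes and sets these lists neither above nor below it. Of 22 pluripotency genes, 1 had a strong peak within 10 kb, Tfcp2l1 at 252.9, and that peak held an exact palindrome. The Esrrb peak is not counted there because it lay 18125 bp from the nearest protein-coding TSS. Among 15 globin and erythroid genes, Hbb-y, an embryonic beta-like globin, had 1 of 201.4, and among 13 autophagy genes Gabarapl2 had 1 of 161.8, which lay nearer to the TSS of Tmem231. The 11 AP-1 factor genes, 4 large MAF genes, 31 proteasome genes, 15 lineage regulators and 15 housekeeping genes had 0 each. Any peak of the list lay within 10 kb of 24 of the 32 antioxidant genes, 14 of the 22 pluripotency genes and 20 of the 31 proteasome genes, against 27.1% of all genes. A share above that of all genes was not particular to these lists. Such a peak lay by 7 of the 15 housekeeping genes, 8 of the 15 lineage regulators and 7 of the 11 AP-1 factor genes, and by 0 of the 4 large MAF genes.

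The group of 1080 regions described above, linked over the whole list, held 32 strong peaks. When strong peaks were linked only among themselves, the largest set was 12 peaks sharing 24 bp stretches, all in soft-masked sequence. The first 3 by signal are printed because the element and its surroundings are nearly the same in each. They lay in introns of Etl4 (307.1) and Prkca (272.8) and in Dnase2a (254.3).
Etl4 (chr2:20584014-20584042, minus strand): ggctggagagaTGACTCAGCAgttatcgc
Prkca (chr11:107986063-107986091, minus strand): ttggagagagaTGACTCAGCAgttaagag
Dnase2a (chr8:84914092-84914120, plus strand): ggctagagagaTGACTCAGCAgttaagaa

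A stretch of 24 bp was shared with another region of the list by 54 of 680 strong peaks (7.94%) and 790 of 6612 of the others (11.9%). Without the peaks that share 24 bp with any other of the list, the palindrome was at 17.3% of 626 strong summits against 0.653% of 5822 (odds ratio 31.7), and the composite element at 55.6% against 22.1% (4.40).

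Strong peaks had another summit of the list within 10 kb in 29.7% (202), against 22.1% (1459) of the others (odds ratio 1.49, 1.25 to 1.78, exact test, p = 1.18e-05). In replicate 1's own list the shares were 14.1% against 13.4% (1.05, exact test, p = 0.729), and in replicate 2's 23.4% against 16.8% (1.52). Pairs of members within 10 kb numbered 9, of which 2 were within 1 kb, near Sec24d and Wdr81. Genes with 3 or more members within 50 kb of a TSS numbered 10. Bicdl1 and Serpinf1 had 4 each. Grb10, Prpf8, Rilp, Serpinf2, Tlcd2, Wdr81, Rere and Synpo2 had 3 each, and Prpf8, Rilp, Serpinf2, Tlcd2 and Wdr81 are neighbours on chromosome 11 that count the same members. Serpinf1 lies there too and counts these members among its 4.

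All 680 strong peaks overlapped the thresholded lists of both replicates, against 994 of the peaks of 20 to 40 and 35.4% of all regions. All 680 also overlapped the conservative list, as did 90.9% of the peaks of 20 to 40 and 81.8% of all regions. The pooled signal rests on both replicates' reads, so these overlaps are no independent check. Relaxed signal had a median of 105.9 (55.8 to 272.2) in replicate 1 and 101.04 (48.5 to 247.5) in replicate 2. Over the 680 members the replicates' signals had a Spearman rho of 0.633 and a Pearson r of 0.675 on the log2 scale, as a description over sites that share 2 libraries. Among the 680 strongest regions of each replicate, 600 members were found in replicate 1, 596 in replicate 2 and 516 (75.9%) in both. The second processing run had 700 regions of 150 or more, and 668 members (98.2%) overlapped 1 of them.

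The replicates were not alike by element. Signal was higher in replicate 1 than in replicate 2 at 94 of 113 members with the exact palindrome (83.2%, median log2 ratio 0.25). It was higher at 157 of 280 with another composite element (56.1%, 0.07), 92 of 188 with the ARE core (48.9%), 31 of 76 with the MAF core only (40.8%) and 2 of 14 with none (14.3%, −0.18). Over all members the median log2 ratio was 0.07 with an SD of 0.35. Over the whole list, palindrome regions were higher in replicate 1 in 65.4% of 361 cases and other composite elements in 45.2%. At promoters 37.1% of the 89 members were higher in replicate 1, beside 35.8% of 2470 promoter regions of the whole list. The promoter share was therefore not particular to the strong peaks. These are values of 2 libraries with no further replicate, and their cause was not tested.

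**Figure D5:**
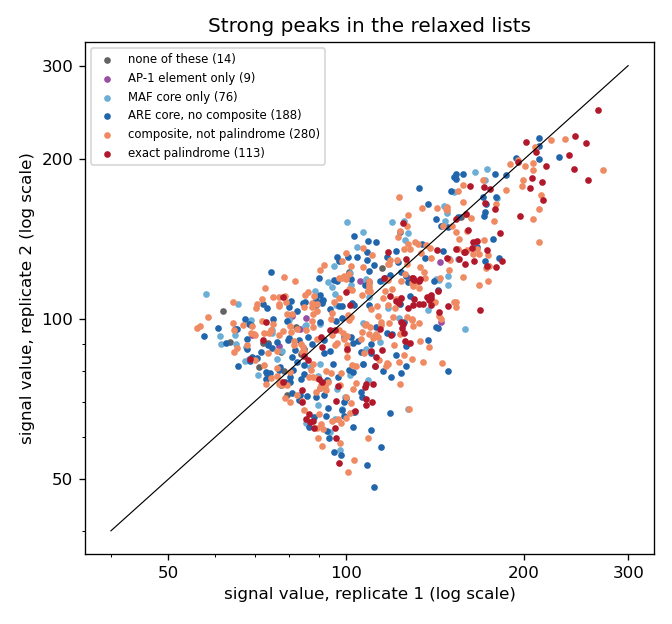
Signal value of the 680 strong peaks in the relaxed lists of replicate 1 (horizontal) and replicate 2 (vertical), both on log scales, coloured by element class; the line marks equal values. Peaks with the exact palindrome lie mostly below the line, with 94 of 113 higher in replicate 1.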

How the data were processed

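MAFK ChIP-seq regions of 2 replicates were analysed from the lists that the authors deposited on mm10. The aligner, the caller and any filters were not given in the sources used here. The signal value and IDR score are scores that the authors deposited, and the significance column is a deposited −log10 q-value. The optimal list of the first run was thresholded by IDR from the replicates and their pool, per the notes deposited as text. The replicates' thresholded lists come from a second run on other alignments.

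Summits came from the deposited offset. Elements were searched without mismatches on both strands within 50 bp of each summit in the GRCm38 reference. Genes came from GENCODE vM21, and location took any transcript in the order TSS, exon, intron, intergenic. Shares were compared with Fisher's exact test, two-sided (scipy 1.17.1, Python 3.11.15), with Benjamini-Hochberg adjustment within each family of tests. Intervals are 95% Wilson intervals for shares and log-scale intervals for odds ratios, and cover counting error only. Members, gene lists and tests were chosen with earlier results of these data known. Named genes are those of the 20 strongest members, of the threshold, of the gene lists within 10 kb and of clusters within 50 kb. Classes, mismatch counts, genome counts, promoter split and the sequences at listed genes and in repeats were added after values were seen. Hmox1 is in 2 lists. Left out were regions on other sequences. One member among the strongest is counted throughout but not reported here by name, position or sequence.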

Additional observations from a re-analysis of the deposited data

How the results depend on the processing

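The palindrome passed under all 15 alternatives run (odds ratio 6.81 to 47.7) and so did the composite element (2.74 to 4.78), over other windows, thresholds, lists, chromosomes, repeats and promoters. The count of families that passed was 5 to 7. The number of 8 bp sequences called was 17 at signal 200 or more, 13 among peaks in both replicates' lists (11 higher and 2 lower), and 10 to 12 with a replicate left out, where fewer peaks were tested. The number of bases passing beside the composite element was 17 outside soft-masked sequence, 12 among peaks that share no 24 bp with another (added after the data were seen) and 22 with either replicate left out. The promoter odds ratio turned to 1.07 at signal 100 or more, 1.01 in the second run and 1.05 with promoters of 5 kb, and passed in none. For introns it was 1.01 against all peaks under 150, at signal 100 or more and in the second run, 1.02 at signal 200 or more, and 1.08 to 1.18 with a replicate left out. For intergenic summits it was 0.956 at signal 100 or more and in the second run and 0.924 to 1.003 with a replicate left out. The odds ratio for a neighbouring summit was 1.05 without replicate 2 and 1.52 without replicate 1. With 50% of both regions shared, 94.6% of strong peaks were in both replicates' lists. The causes of these changes were not tested. The unstated signal scale and unknown depth limit any statement on how much more protein was bound. No paired analysis was possible because there is only 1 group.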

Other observations

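The 14 strong peaks with none of the 5 elements are the exception to the sequences above. The strongest lay near Diaph1, a formin gene, at 314.4, with 156.5 in replicate 1 and 155.9 in replicate 2, and near Ndufa10, a subunit of respiratory complex I, at 241.7. The others were near Vangl1, Eif3d, Hist1h2br, Nck2, Barx2, Ppp1r16b, Pde4d, Rnase4, Cltc, Gadd45g, Ilf2 and Grb10, at 150.3 to 226.5. Of the 14, 6 were within 1 kb of a TSS, and their best match to the palindrome had 2 mismatches in 1 peak, 3 in 2 and 4 or more in the rest. These members were named after their values were seen.

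Exact palindromes of the reference without a summit of the list within 50 bp were few. In soft-masked sequence 13 of 15 had a summit (86.7%), and on chromosome X 7 of 10 had one, against 361 of 373 on the autosomes.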
